A study of Mus musculus with 30 samples.

Results

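Spleen and lymph node of the same animals were compared in 6 Tg26 mice with lymphoma, on 6 spleen and 6 lymph node arrays. These 12 arrays of 30 were taken by their labelled disease state and organ, and the organs were paired by the mouse number in the title. The comparison asks which organ differences remain once both organs hold tumour. Tg26 mice carry an HIV-1 provirus of the pNL4-3 strain that lacks part of gag-pol and makes no infectious virus. The same pair of organs came from 6 asymptomatic Tg26 mice and 3 FVB/N mice without the transgene. All Tg26 mice were heterozygous, all animals had the FVB/N background, and ages ran from 5 to 12 months, with no age or sex given per mouse. The labels do not say which lymph nodes were taken, whether nodes were pooled, or what share of an organ was tumour. The arrays were of the Affymetrix Mouse Gene 1.0 ST design and took total RNA, and every level below is a deposited log2 value, so that a difference of 1 is a 2-fold change. Differences are spleen minus lymph node within a mouse, and a call means that a paired limma fit over 19938 genes gave the gene an adjusted p (Benjamini-Hochberg) under 0.05.

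A healthy spleen and a healthy lymph node share B and T cells but differ in what surrounds them. The red pulp of the spleen filters blood, holds macrophages that recycle iron from old red cells, and in mice makes red cells, platelets and granulocytes throughout life. A lymph node filters lymph, and is built on fibroblastic reticular cells, lymphatic sinuses with their own macrophages, and high endothelial venules through which lymphocytes enter from blood. The results are ordered by these compartments, first those of spleen, then those of node, then the B cells. In bulk tissue, fewer cells of a type and less RNA per cell cannot be told apart.

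Levels of B cell precursor genes were high in both organs of the lymphoma mice. A list of 19 early B precursor genes averaged between 9.1 and 9.67 in the 6 lymphoma spleens and between 9.41 and 9.8 in the 6 lymphoma nodes. In asymptomatic mice the same list averaged between 7.57 and 7.85 in spleen and between 7.57 and 8.07 in node. A T lineage list of 22 genes lay lower with lymphoma, between 6.41 and 7.6 in spleen and between 6.69 and 7.97 in node, against 9.57 to 9.82 in asymptomatic spleen and 8.72 to 10.51 in asymptomatic node. Transcripts of neighbouring tissue varied between states. Adipose and muscle genes averaged between 6.07 and 6.44 in lymphoma nodes but between 6.68 and 9.87 in asymptomatic nodes. Exocrine pancreas genes reached 13.14 in an asymptomatic node, against at most 6.05 in lymphoma nodes, and salivary gland genes reached 6.68 in the node of lymphoma mouse 5. The node with the highest pancreas level, that of asymptomatic mouse 6, also held more red cell transcripts than its spleen, and without that mouse 3246 genes were called between asymptomatic organs in place of the 3080 given below.

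Lymphoma mouse 4 stood apart from the other 5 lymphoma mice. Its spleen lay below its node for most genes of blood formation, with 19 of 25 erythroid and 21 of 25 neutrophil genes lower. This was not particular to blood formation, since 17 of 19 mature B, 12 of 13 MHC class II and 19 of 22 T lineage genes were lower too. Of all genes, 43.3% were higher in the spleen of mouse 4. Across all genes, its organ difference correlated with that of each other lymphoma mouse between -0.34 and -0.11 (5 pairs), whereas the other 5 mice correlated with each other between 0.05 and 0.52 (10 pairs). These are correlations across genes, which are not independent replicates. The spleen array of mouse 4 also carries the disease status code used for FVB/N mice, while its title and description say lymphoma. Its Igll1 level of 10.16 and Rag1 level of 11.36 lay far above every asymptomatic spleen, where the highest values were 6.71 and 5.79. Its Rag1 level was 10.67 in the node. The main values below are therefore given with and without mouse 4.

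With all 6 mice, limma called 0 of 19938 genes different between spleen and node with lymphoma (0.0%), while 1411 had an unadjusted p under 0.05 and the smallest adjusted p was 0.589. Without mouse 4, 124 genes were called (0.622%), of which 110 were higher in spleen (0.552%) and 14 lower (0.0702%), and 2402 had an unadjusted p under 0.05. Leaving out any other single lymphoma mouse gave 0 calls. Of the 110 higher genes, 106 were lower in the spleen of mouse 4 than in its node, and of the 14 lower genes, 7 were higher there. Of all genes, 43.3% were higher in the spleen of mouse 4. Genes called only once mouse 4 is left out are partly chosen by its opposition, so these counts are a description. The same paired fit in the 6 asymptomatic mice called 3080 genes (15.4%), with 1379 higher in spleen (6.92%) and 1701 lower (8.53%). Of those asymptomatic calls, 147 higher and 768 lower genes differed by over 1 log2 unit. The number of genes past 1 log2 unit in a single mouse lay between 293 and 617 in the 6 lymphoma mice and between 562 and 1933 in the 6 asymptomatic mice.

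**Figure D1:**
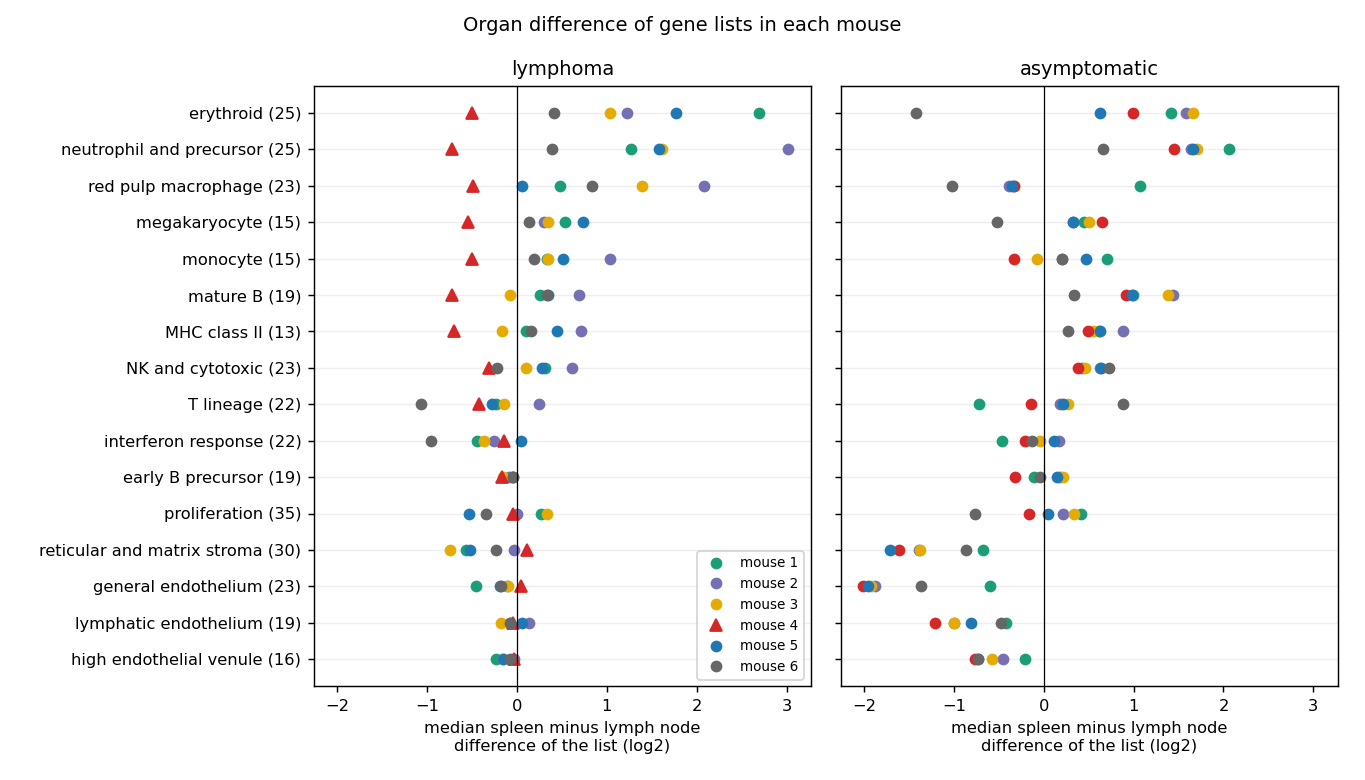
Median spleen minus lymph node difference (log2, horizontal axis) of 16 gene lists, with the number of measured genes in brackets, in each of 6 lymphoma mice (left) and 6 asymptomatic mice (right). Lists of red cells, neutrophils and red pulp macrophages lie right of 0 in lymphoma mice 1, 2, 3, 5 and 6 and left of 0 in mouse 4 (triangle), while stromal and endothelial lists lie nearer 0 with lymphoma than in asymptomatic mice.

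Red cell genes formed the group with the most calls. Without mouse 4, 11 of 25 erythroid genes were higher in spleen (against 0.552% of all genes), and none was lower. With all 6 mice, none of the 25 was called. The median difference of the list was 1.09 with all 6 mice and 1.4 without mouse 4, against -0.01 for all genes in both cases. It was 0.78 in asymptomatic mice, in which Car1 and Alas2 alone were called, and 1.1 in FVB/N mice. Asymptomatic mouse 6 had a median of -1.42, against 0.63 to 1.66 in the other 5 asymptomatic mice. In lymphoma mouse 4, 19 of the 25 were lower in spleen, while 43.3% of all genes were higher there.

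Car1, a carbonic anhydrase of immature red cells, had the largest difference of any called gene without mouse 4. Its level in spleen was 12.65, 11.32, 11.89, 6.16, 11.90 and 10.70 in lymphoma mice 1 to 6, against 6.82, 5.38, 5.33, 10.36, 6.18 and 6.15 in their nodes. Only in mouse 4 was the node higher, and the other 5 spleens lay above all 6 nodes. The difference averaged 5.72 ± 0.73 without mouse 4 (SD, n = 5, adjusted p = 3.41e-05) and 4.07 ± 4.1 with it (SD, n = 6, adjusted p = 0.592). In asymptomatic mice it was 3.62 (adjusted p = 0.0183), with spleen higher in 5 of 6 mice.

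Rhag, which carries the Rh blood group complex in the red cell membrane, read 10.25, 8.23, 8.56, 4.43, 8.99 and 5.97 in the 6 lymphoma spleens and 4.87, 4.37, 4.33, 6.55, 4.47 and 4.25 in their nodes. Spleen exceeded node in every mouse but mouse 4, although the spleen of mouse 6 lay below the node of mouse 4. The difference was 3.94 ± 1.36 without mouse 4 (SD, n = 5, adjusted p = 0.00981) and 2.93 with it (adjusted p = 0.589). Slc4a1, the band 3 anion exchanger of red cells, read 11.45, 9.36, 9.60, 6.11, 10.38 and 7.22 in spleen, against 7.47, 6.38, 6.58, 8.10, 6.65 and 6.52 in node. It differed by 2.88 ± 1.29 without mouse 4 (SD, n = 5, adjusted p = 0.0253) and by 2.07 with it (adjusted p = 0.597), and mouse 6 had the smallest positive difference, 0.7. The other called genes were Aqp1, Kel, Rhd, Ermap, Epb42, Ank1, Sptb and Klf1, the last of which encodes a transcription factor of red cell maturation.

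Aqp1, a water channel of red cells and of endothelium, was the erythroid gene whose organ difference changed with disease. Its level ran between 6.77 and 10.56 in the 6 lymphoma spleens (median 8.86) and between 6.22 and 7.74 in the nodes (median 6.56). In asymptomatic mice it ran between 7.6 and 8.68 in spleen (median 8.26) and between 7.81 and 9.6 in node (median 9.46). The spleen was higher in 5 of 6 lymphoma mice and in 1 of 6 asymptomatic mice, and the organ difference was 2.95 more positive with lymphoma (SE 0.75, adjusted p = 0.0318). Lymphoma nodes lay below all asymptomatic nodes, and the spleens of the 2 states overlapped.

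Promoter sequences are printed for 3 of the called red cell genes, since the stretch before their start holds a motif of the GATA family, whose member GATA1 drives red cell genes. Each line gives the 100 bases before the RefSeq start, 5′ to 3′ on the strand of the gene, with the motif in capitals (GRCm38.p6).
Rhd, chr4:134864436-134864535, plus strand: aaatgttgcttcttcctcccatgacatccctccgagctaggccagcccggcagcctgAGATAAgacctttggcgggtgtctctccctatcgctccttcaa
Rhag, chr17:40811049-40811148, plus strand: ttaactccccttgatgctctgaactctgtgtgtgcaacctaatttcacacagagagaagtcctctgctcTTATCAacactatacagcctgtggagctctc
Kel, chr6:41704326-41704425, minus strand: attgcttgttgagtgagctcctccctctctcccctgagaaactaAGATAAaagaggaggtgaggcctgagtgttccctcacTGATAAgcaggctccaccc
The motifs searched were AGATAA and TGATAA on both strands, which read TTATCT and TTATCA on the other strand. Of the 25 erythroid genes, 18 had a start that was searched, and 9 of these genes held a motif. Of all 32851 starts, 2027 held a motif (6.2%). The erythroid count is of genes, of which Tfrc and Tal1 had several starts, whereas the count over all starts is of single starts. The shares are therefore not directly comparable. Of the 11 genes called without mouse 4, 8 had a start that was searched and 5 held a motif. A match is a description of these letters and not a bound site. Gata1 itself was 1.56 higher in spleen without mouse 4 (adjusted p = 0.0584) and did not pass.

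Platelet precursors and granulocytes followed the same order. Without mouse 4, 3 of 15 megakaryocyte genes were higher in spleen (against 0.552% of all genes) and none lower. Ppbp, a chemokine stored in platelets, ran between 5.34 and 9.95 in lymphoma spleen (median 8.77) and between 5.27 and 7.86 in node (median 5.71), and mouse 4 gave both the lowest spleen and the highest node. Its difference was 3.2 ± 0.78 without mouse 4 (SD, n = 5, adjusted p = 0.00212) and 2.25 with it (adjusted p = 0.592). In asymptomatic mice it was 2.16 (adjusted p = 0.0361). Tubb1, the platelet form of beta tubulin, and Clec1b, a platelet receptor, were the other called genes, at 1.28 (adjusted p = 0.0253) and 1.16 (adjusted p = 0.00981) without mouse 4, and 0.97 and 0.82 with it (adjusted p = 0.589 and 0.592).

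Neutrophil genes had a positive median organ difference in every state. Without mouse 4, 6 of 25 genes of neutrophils and their precursors were called higher (against 0.552% of all genes). These were Cd177, Chil3, S100a9, Camp, Cxcr2 and Csf3r. In asymptomatic mice, 22 of 25 were called higher (against 6.92% of all genes). The median difference was 1.28 with all 6 lymphoma mice, 1.76 without mouse 4, 1.54 in asymptomatic mice and 1.34 in FVB/N mice. None of the 25 was called in the test of the difference between lymphoma and asymptomatic mice.

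S100a9, a subunit of the neutrophil protein calprotectin, read 10.45, 10.43, 9.48, 8.03, 10.23 and 9.73 in the lymphoma spleens and 8.95, 6.34, 6.65, 9.58, 7.42 and 8.75 in the nodes. The organs overlapped through mouse 4 alone. The difference was 2.44 ± 1.23 without it (SD, n = 5, adjusted p = 0.0326) and 1.78 with it (adjusted p = 0.595). Mouse 2 had the largest median difference of the neutrophil list among the 6 mice, 3.02, and mouse 6 the smallest positive one, 0.39. Ms4a3 and Ctsg, markers of early granulocytes, were higher in spleen in all 6 mice, mouse 4 included, with mean differences of 1.07 and 1.32 that did not pass (adjusted p = 0.589 for each), and 1.2 and 1.57 without mouse 4 (adjusted p = 0.108 and 0.134).

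**Figure D2:**
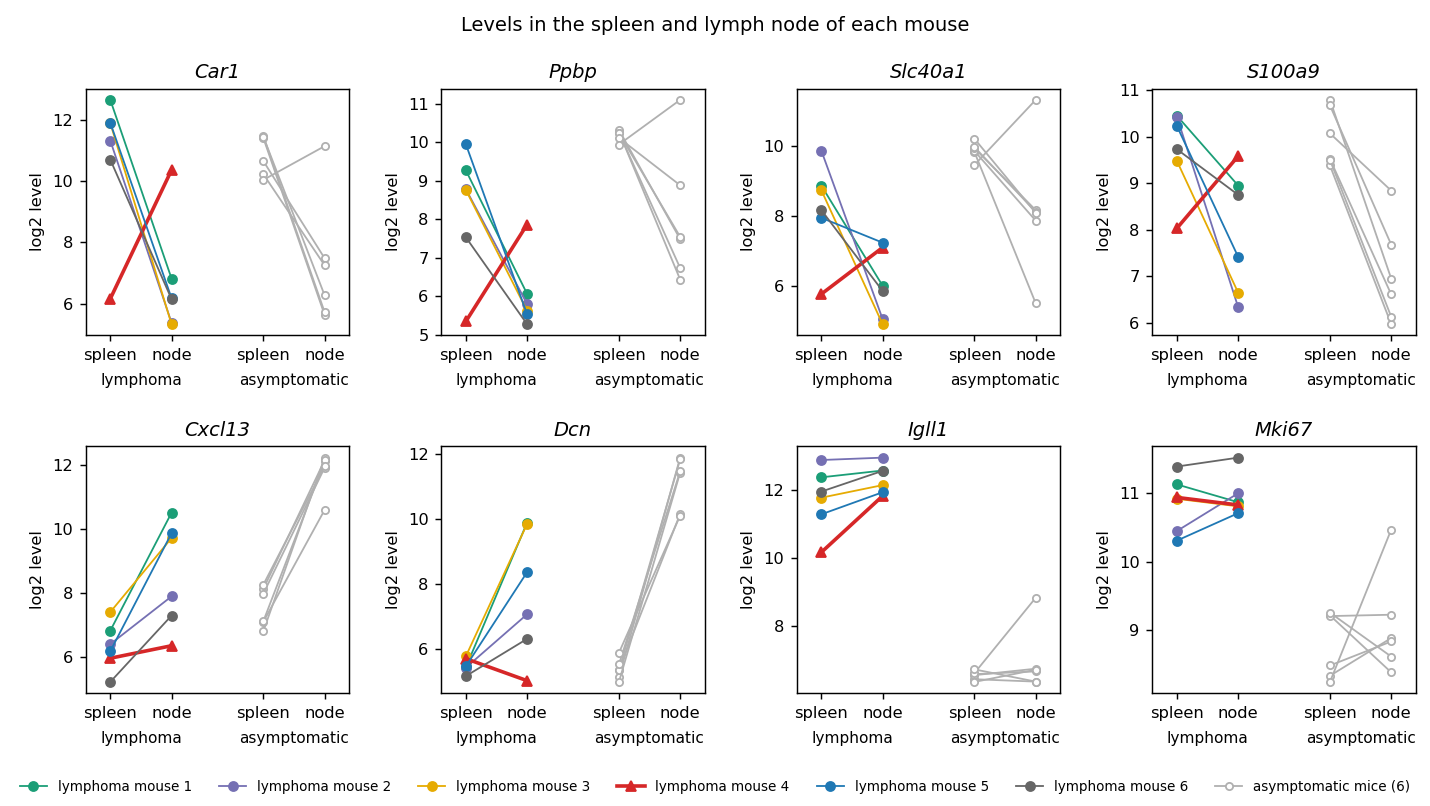
Log2 level of 8 genes in spleen and lymph node, with lymphoma at the left of each panel and asymptomatic mice at the right, and a line joining the organs of 1 mouse. In Car1, Ppbp, Slc40a1 and S100a9, mouse 4 (red triangles) has the node above the spleen and the other 5 lymphoma mice have the spleen above the node, whereas Cxcl13 is lower in the spleen of all 6.

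Red pulp macrophage genes had a positive median organ difference in 5 of 6 lymphoma mice. Without mouse 4, 4 of 23 were called higher (against 0.552% of all genes) and none lower, and 8 of 23 were higher in all 5 mice (against 5.81% of all genes). The median difference was 0.65 with all 6 mice and 0.89 without mouse 4, against -0.2 in asymptomatic and -0.24 in FVB/N mice. Single mice varied, with 0.06 in lymphoma mouse 5 and 2.08 in lymphoma mouse 2. Asymptomatic mouse 1 had a median of 1.07, and the other asymptomatic mice lay between -1.02 and -0.33. Of the 23 genes, 1 was called more positive with lymphoma than in asymptomatic mice, near the 4.03% of all genes (2 without mouse 4, against 3.39%). The list averaged between 7.36 and 8.23 in lymphoma nodes and between 7.86 and 9.92 in asymptomatic nodes. Slc40a1, the iron exporter ferroportin, read 8.87, 9.87, 8.74, 5.77, 7.95 and 8.17 in lymphoma spleen, against 6.01, 5.06, 4.91, 7.10, 7.24 and 5.86 in node. The spleens other than that of mouse 4 all lay above all 6 nodes, and the difference was 2.9 ± 1.56 without mouse 4 (SD, n = 5, adjusted p = 0.0392) and 2.2 with it (adjusted p = 0.592).

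Cd5l, a protein secreted by macrophages, was 2.48 higher in spleen without mouse 4 (adjusted p = 0.0263), against -0.21 in asymptomatic mice. The change between the states, with all 6 lymphoma mice, did not pass (2.05, adjusted p = 0.157). Adgre1, the macrophage antigen F4/80, was 1.74 higher (adjusted p = 0.0253), and Treml4, a receptor of splenic myeloid cells, 1.93 higher (adjusted p = 0.0181). With all 6 mice these 3 genes differed by 1.85, 1.29 and 1.38 (adjusted p = 0.592 for each). Spic, the transcription factor of iron-recycling macrophages, was 1.52 higher and did not pass (adjusted p = 0.123). Some members were lower in asymptomatic spleen. Axl, a receptor for dying cells, differed by 0.49 with lymphoma and by -1.1 in asymptomatic mice (adjusted p = 0.0268), a change that did not pass (1.59, adjusted p = 0.0889). Timd4, another such receptor on resident macrophages, differed by -0.08 with lymphoma and by -3.03 in asymptomatic mice (adjusted p = 0.000932), and the test of the change gave 2.95 (SE 0.54, adjusted p = 0.00789). C1qb, a chain of the first complement component, changed by 1.59 (adjusted p = 0.0586), and it passed without mouse 4 (adjusted p = 0.0399).

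Without mouse 4, 4 of 15 monocyte genes were called higher in spleen (against 0.552% of all genes) and none lower. With all 6 mice none was called, and an unadjusted p under 0.05 was reached by 6 members with a higher and 2 with a lower level in spleen. Fcgr4, an activating Fc receptor, ran between 5.85 and 7.95 in lymphoma spleen (median 7.06) and between 4.62 and 6.03 in node (median 4.93), so that only the spleen of mouse 4 fell within the node range. Its difference was 2.24 ± 0.57 without mouse 4 (SD, n = 5, adjusted p = 0.00335) and 1.84 with it (adjusted p = 0.589). Ace, the angiotensin converting enzyme, Nr4a1, a nuclear receptor, and Treml4 were the other called members. The list did not move as a whole. In the 5 mice other than mouse 4, differences ran between -1.25 and 0.97 for Ccr2 and between -1.14 and 1.03 for F13a1. Adgre4, a macrophage and monocyte receptor, read 8.11, 8.69, 7.95, 5.34, 8.40 and 7.93 in spleen and 6.01, 4.94, 5.53, 6.37, 5.79 and 5.27 in node. Outside mouse 4 its organs did not overlap, and the difference was 2.71 ± 0.62 without it (SD, n = 5, adjusted p = 0.00212) and 2.09 with it (adjusted p = 0.589).

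Also among the 12 largest calls were genes outside these lists. Adck1, a mitochondrial kinase-like gene, differed by 3.15, Ces2g, a carboxylesterase, by 2.76, and Tlcd4 by 2.72 (adjusted p = 0.031, 0.00841 and 0.0362), and with all 6 mice by 2.09, 2.08 and 2.19 (adjusted p = 0.676, 0.589 and 0.589). Each was higher in spleen than in node in 5 mice and lower in mouse 4. Ces2g was higher in spleen in 1 of 6 asymptomatic mice, where its difference was -0.44 (adjusted p = 0.418). Its change between the states, with all 6 lymphoma mice, did not pass (2.52, adjusted p = 0.065).

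On the node side, Dcn and the B cell chemokine Cxcl13 had the largest differences among genes called without mouse 4, and Cxcl13 kept its direction in all 6 mice. Its level was 6.83, 6.41, 7.41, 5.97, 6.19 and 5.23 in the spleens of lymphoma mice 1 to 6, against 10.51, 7.90, 9.72, 6.36, 9.87 and 7.30 in their nodes. Spleen was below node in all 6 mice, but the ranges overlapped through the nodes of mice 4 and 6. The difference was -2.27 with all 6 mice (95% confidence interval -3.13 to -1.41, adjusted p = 0.589) and -2.65 ± 0.99 without mouse 4 (SD, n = 5, adjusted p = 0.015). In asymptomatic mice, spleen levels lay between 6.82 and 8.27 and node levels between 10.6 and 12.23, with a difference of -4.26 (adjusted p = 0.000194). The change between the states was 1.99 and did not pass (adjusted p = 0.0542, or 0.0961 without mouse 4).

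Dcn, which encodes the matrix proteoglycan decorin of fibroblasts, lay between 5.15 and 5.76 in the 6 lymphoma spleens. Their nodes read 9.89, 7.06, 9.85, 5.01, 8.36 and 6.30, so that 5 of 6 nodes exceeded all spleens and the node of mouse 4 lay below all of them. The difference was -2.85 ± 1.46 without mouse 4 (SD, n = 5, adjusted p = 0.0331) and -2.27 with it (adjusted p = 0.589). In asymptomatic mice, nodes lay between 10.11 and 11.9, all above the highest lymphoma node, and the organ difference was -5.8. It was 3.53 more positive with lymphoma (SE 0.78, adjusted p = 0.0172).

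Of 30 genes of reticular and matrix stroma, 3 were called lower in spleen without mouse 4 (Cxcl13, Dcn and Col1a1, against 0.0702% of all genes), and 12 were lower in all 5 mice (against 6.26%). In asymptomatic mice, 25 of 30 were called lower (against 8.53%). The median was -0.37 with lymphoma, -0.45 without mouse 4, -1.28 in asymptomatic mice and -1.17 in FVB/N mice. With lymphoma, 11 of the 30 were called more positive than in asymptomatic mice (against 4.03%, and 7 without mouse 4). Ccl19, a chemokine of reticular cells that draws T cells and dendritic cells, differed by -0.58 with lymphoma and by -3.61 in asymptomatic mice, and its change of 3.03 passed (SE 0.55, adjusted p = 0.00786).

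Other genes lower in spleen without mouse 4 were Serping1, the inhibitor of the first complement component (-1.86, adjusted p = 0.0301), and Dab2, an endocytic adaptor (-1.21, adjusted p = 0.0129). Ccl8, a monocyte chemokine, differed by -1.21 (adjusted p = 0.0308) and Sfrp2, a secreted inhibitor of Wnt signals, by -0.86 (adjusted p = 0.0253). Sparcl1 and Pmp22 were called at -0.79 and -0.78 (adjusted p = 0.031 and 0.0475), and Olfr430, named for an olfactory receptor, at -0.7 (adjusted p = 0.0475). Serping1, Ccl8 and Sfrp2 were lower in the spleen of mouse 4 too. With all 6 mice, Serping1, Dab2, Ccl8 and Sfrp2 differed by -1.56, -0.98, -1.04 and -0.74 (adjusted p = 0.589 for each). Dab2, Sparcl1 and Pmp22 had called changes from asymptomatic mice, whose differences were -3.52, -2.98 and -2.76. Serping1 and Ccl8, at -3.97 and -3.54 in asymptomatic mice, had called changes of 2.41 and 2.5 (adjusted p = 0.03 and 0.0342), which did not pass without mouse 4 (adjusted p = 0.0595 and 0.0653). Sfrp2 showed a change of 0.08 (adjusted p = 0.873).

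Proliferation genes differed little between organs. The levels of 35 proliferation genes gave no call and no unadjusted p under 0.05, and their mean differences stayed within 0.17 of 0, with 95% confidence intervals between -0.53 and 0.51. Mki67, the proliferation marker Ki-67, ran between 10.31 and 11.39 in spleen and between 10.71 and 11.52 in node, with a difference of -0.1 (95% confidence interval -0.37 to 0.17). The direction of the list varied by mouse, with medians of 0.27 and 0.33 in mice 1 and 3 and of -0.53 and -0.35 in mice 5 and 6. Rag1, the recombinase of lymphocyte precursors, read between 9.73 and 11.36 in spleen and between 9.85 and 11.22 in node (difference -0.04, 95% confidence interval -0.38 to 0.29, and -0.19 without mouse 4).

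A small node excess was present in some precursor genes. Igll1, the lambda 5 part of the surrogate light chain, read 12.37, 12.88, 11.77, 10.16, 11.28 and 11.95 in spleen, against 12.57, 12.95, 12.14, 11.82, 11.93 and 12.56 in node. It was lower in spleen in all 6 mice, most in mouse 4, with overlapping ranges and a difference of -0.59 (95% confidence interval -1.0 to -0.18, adjusted p = 0.592). Without mouse 4 it was -0.38 (adjusted p = 0.234). Vpreb1, the other part of the surrogate light chain, was also lower in all 6, at -0.73 (95% confidence interval -1.11 to -0.35, adjusted p = 0.589), and -0.57 without mouse 4 (adjusted p = 0.136). Lef1 and Cplx2 completed the 4 of 19 early B genes that were lower in all 6 mice (against 2.54% of all genes), and none of the 19 was called with or without mouse 4.

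Adgrg1, an adhesion receptor, and Tedc1, a centriole gene, were lower in the spleen of all 6 mice and called without mouse 4. Adgrg1 read 11.43, 10.62, 10.86, 10.36, 10.94 and 10.79 in spleen and 11.95, 10.95, 11.60, 10.92, 11.43 and 11.49 in node. The organs overlapped, yet every pair had the node higher by 0.34 to 0.74, and the difference was -0.56 with all 6 mice (adjusted p = 0.589) and without mouse 4 (adjusted p = 0.0484). The asymptomatic medians were 7.28 in spleen and 8.44 in node. Tedc1 differed by -0.59 without mouse 4 (adjusted p = 0.0357), against 0.33 in asymptomatic mice, a change of -0.85 (SE 0.14, adjusted p = 0.0055).

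T cell and interferon genes leaned to the node without passing. Of 22 T lineage genes, none was called and 5 were lower in spleen in all 6 mice (against 2.54% of all genes). The list median was -0.35 with lymphoma, against 0.14 in asymptomatic and -0.13 in FVB/N mice. None of the 22 was called in the test of the change between lymphoma and asymptomatic mice. Cd8b1, a chain of the CD8 receptor, differed by -0.68 (adjusted p = 0.589). Of 22 interferon response genes, none was called, and 4 were lower in all 6 mice (against 2.54% of all genes). Usp18, which dampens interferon signals, differed by -1.01 and Oas2, an antiviral enzyme, by -0.6 (adjusted p = 0.589 for each). Without mouse 4 Cd8b1, Usp18 and Oas2 differed by -0.74, -1.05 and -0.71 (adjusted p = 0.22, 0.183 and 0.0566). Mouse 6 had the most negative median for both lists, -1.07 and -0.96.

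Genes of lymphocyte traffic and of natural killer cells had lower medians with lymphoma than in asymptomatic mice. Of 24 homing receptors, 14 were called higher in asymptomatic spleen (against 6.92% of all genes). With lymphoma, 2 (S1pr5 and Cxcr5) were called higher without mouse 4 (against 0.552% of all genes). Between the states, 2 of the 24 changed (against 5.91% of all genes). The median difference of the 24 was 0.08 with lymphoma, with or without mouse 4, and 0.49 in asymptomatic mice. Of 23 natural killer and cytotoxic genes, 14 were higher in asymptomatic spleen (against 6.92%), none was called with lymphoma, and 1, Ccl3, changed between the states. The shares that changed in both lists lay near that of all genes. The median of the natural killer list was 0.09 with lymphoma, 0.19 without mouse 4, and 0.5 in asymptomatic mice.

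The organ differences of asymptomatic mice were smaller with lymphoma. The 1379 genes called higher in asymptomatic spleen had a median difference of 0.05 with lymphoma (0.09 without mouse 4), against 0.5 in asymptomatic and 0.45 in FVB/N mice. The 1701 genes called lower there had a median of -0.08 with lymphoma (-0.09 without mouse 4), against -0.93 in asymptomatic and -0.8 in FVB/N mice. The genes were chosen by the asymptomatic values, so their asymptomatic medians are a description, and a smaller median in another group is partly a matter of that choice. The FVB/N medians, which the choice did not use, lay close to the asymptomatic ones. Of the 147 higher genes past 1 log2 unit in asymptomatic mice, 27 were past it with lymphoma (43 without mouse 4), and of the 768 lower genes, 13 were (19 without mouse 4).

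The direct test of the difference between states called 1179 genes (5.91%), with 803 more positive (4.03%) and 376 more negative (1.89%) with lymphoma. Without lymphoma mouse 4 it called 930 (4.66%), with 676 more positive (3.39%) and 254 more negative (1.27%). Of the 16 genes with the largest changes, 15 were called without mouse 4 too, and Thrsp was not (adjusted p = 0.0522). Among the 1379 genes higher in asymptomatic spleen, 304 were called smaller or opposite with lymphoma (against 1.89% of all genes called more negative). Among the 1701 lower genes 772 were (against 4.03% called more positive), and none of either set was called larger. Both sets were chosen by the asymptomatic difference that this test subtracts, so the lean to smaller differences is partly a matter of that choice. Across all genes the mean organ difference with lymphoma correlated with the asymptomatic one at 0.25 and with the FVB/N one at 0.25, whereas asymptomatic and FVB/N correlated at 0.79. The 3 states share no mice, and genes are not independent.

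**Figure D3:**
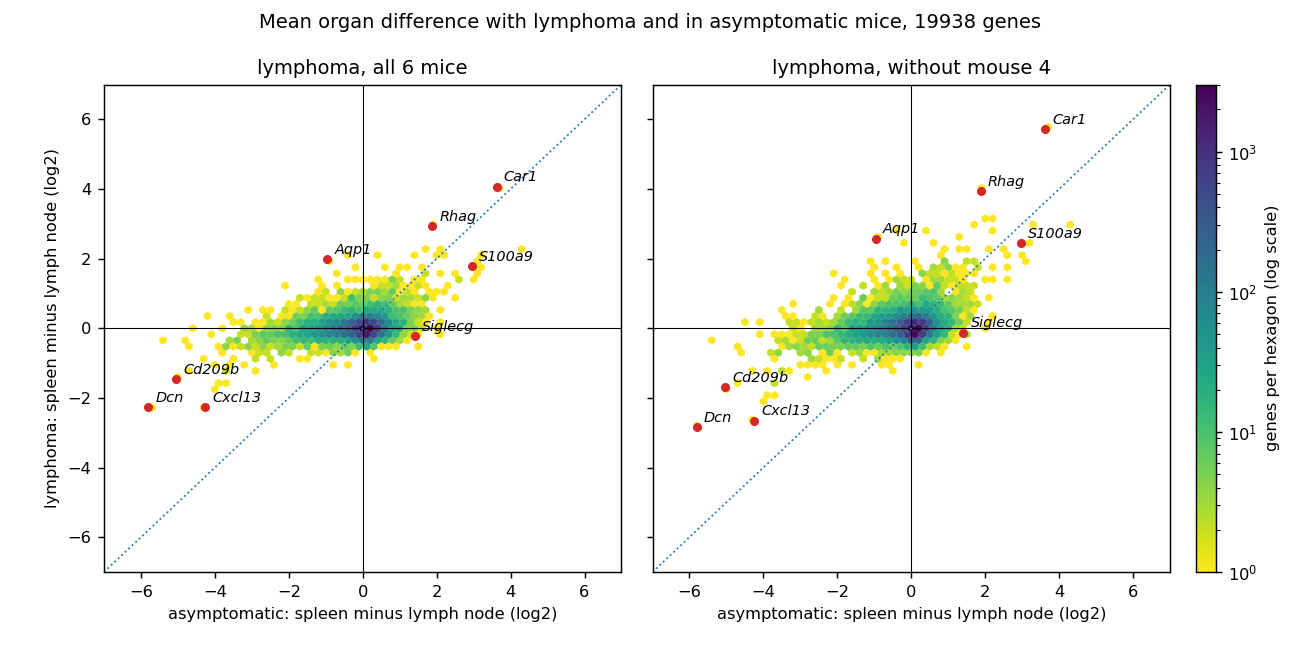
Mean spleen minus lymph node difference (log2) in asymptomatic mice (horizontal) and with lymphoma (vertical) for all genes, with all 6 lymphoma mice (left) and without mouse 4 (right), and with the dotted line marking equal differences. Most genes lie along the horizontal axis, Car1 and Rhag lie above the dotted line at the upper right, and Dcn, Cxcl13 and Cd209b lie lower left, above the line, with smaller differences under lymphoma.

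Genes listed as general endothelium showed the change most widely. Of 23 genes of general endothelium, 20 were called lower in asymptomatic spleen (against 8.53%), none was called with lymphoma with or without mouse 4, and 18 were called more positive with lymphoma (against 4.03% of all genes), or 16 without lymphoma mouse 4. The median difference was -0.16 with lymphoma, against -1.61 in asymptomatic and -1.37 in FVB/N mice. Some members are not particular to endothelium here, as Erg and Cd93 are also in the early B list. Erg lay between 8.87 and 10.47 in lymphoma spleens and between 9.34 and 10.46 in lymphoma nodes. Its asymptomatic levels were 6.13 to 6.31 in spleen and 6.86 to 8.27 in node. Cd93 was likewise higher in both lymphoma organs. The counts do not separate such members. Cdh5, the cadherin of endothelial junctions, lay between 5.93 and 6.5 in lymphoma spleens and between 6.56 and 6.93 in asymptomatic spleens. In node it lay between 6.11 and 7.74 with lymphoma and between 8.24 and 10.36 in asymptomatic mice, without overlap. Its organ difference was -0.6 with lymphoma and -2.91 in asymptomatic mice, a change of 2.31 (SE 0.37, adjusted p = 0.00527). Kdr, a receptor for vascular growth factor, changed by 3.13 (SE 0.5, adjusted p = 0.00527).

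Vessel types particular to the lymph node followed. Of 19 lymphatic endothelium genes, 11 were lower in asymptomatic spleen (against 8.53% of all genes) and 7 changed with lymphoma, all more positive (against 4.03%, and 5 without mouse 4). Lyve1, a hyaluronan receptor of lymphatic vessels, differed by -0.72 with lymphoma and -3.75 in asymptomatic mice (change 3.03, SE 0.49, adjusted p = 0.00538). Of 16 high endothelial venule genes, 7 were lower in asymptomatic spleen (against 8.53%) and 5 changed, all more positive (against 4.03%, and 6 without mouse 4). Glycam1, a ligand that captures lymphocytes from blood, lay between 5.48 and 6.07 in the spleens of both states. In node it ran between 5.8 and 8.8 with lymphoma (median 6.67) and between 8.22 and 11.73 in asymptomatic mice (median 11.18), and the organ difference was -1.28 with lymphoma and -4.66 in asymptomatic mice (change 3.38, SE 0.69, adjusted p = 0.0132).

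Of 11 genes of marginal zone and sinus macrophages, 6 were lower in asymptomatic spleen (against 8.53%), and the difference became more positive with lymphoma in 4 (against 4.03%, and 3 without mouse 4) and more negative in 1 (against 1.89%, and 1 without mouse 4). Cd209b, a lectin of marginal zone and sinus macrophages, ran between 5.78 and 8.23 in lymphoma nodes and between 9.51 and 12.2 in asymptomatic nodes. The organ difference was -1.46 with lymphoma (lower in spleen in all 6 mice) and -5.04 in asymptomatic mice, a change of 3.58 (SE 0.6, adjusted p = 0.00647). Siglec1, the sialoadhesin of these macrophages, changed by 3.12 (SE 0.56, adjusted p = 0.0072) and Marco, a scavenger receptor, by 2.98 (SE 0.44, adjusted p = 0.00431). Of 17 genes of migratory dendritic cells, which reach nodes through lymph, 9 were lower in asymptomatic spleen (against 8.53%) and 7 changed, all more positive (against 4.03%, and 5 without mouse 4). Ccl22, a chemokine they make, changed by 1.3 (adjusted p = 0.0137). Of 20 complement and coagulation genes, 11 changed, all more positive with lymphoma (against 4.03% of all genes, and 9 without mouse 4).

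The 7 largest changes were in genes of fat tissue. Car3, Ucp1, Fabp4, Pdk4, Gpd1, Thrsp and Dgat2, which serve fat storage, heat production and their fuel use, changed by 5.11, 4.63, 4.44, 4.34, 4.05, 3.69 and 3.61. Fabp4, a fatty acid carrier of fat cells and capillaries, lay between 5.17 and 6.41 in the spleens of both states, and ran between 5.01 and 6.43 in lymphoma nodes and between 7.14 and 11.22 in asymptomatic nodes. Only the asymptomatic nodes stood above the other groups of Tg26 arrays. The adipose and muscle list moved with the endothelial result in asymptomatic mice 2 to 5, whose medians were between -3.93 and -1.56, and its part in that result was not tested. In asymptomatic mouse 6 the adipose median was -0.11 and the endothelial one -1.37, and in FVB/N mouse 3 they were 0.06 and -2.03. Other neighbouring tissue was present there, with a pancreas median of -6.67 in asymptomatic mouse 6 and a salivary median of -1.71 in FVB/N mouse 3. Asymptomatic mouse 1 had an adipose median of -0.35 and an endothelial one of -0.6. In FVB/N mouse 1 they were 0.05 and -0.2.

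In the other direction lay B cell genes. Of 19 mature B genes, 18 were higher in asymptomatic spleen (against 6.92%), and 7 changed with lymphoma, all more negative (against 1.89% of all genes, and 5 without mouse 4). The median was 0.09 with lymphoma and 0.29 without mouse 4, against 0.97 in asymptomatic and 1.13 in FVB/N mice. Cd79a, a signalling chain of the B cell receptor, lay between 10.95 and 11.48 in lymphoma spleen and between 10.91 and 11.46 in lymphoma node. In asymptomatic mice it lay between 10.66 and 11.43 in spleen and between 9.46 and 10.58 in node, so that the node was the lower organ without overlap. The organ difference was -0.05 with lymphoma and 1.0 in asymptomatic mice (change -1.05, SE 0.18, adjusted p = 0.00663). Cd79b and Pou2af1, a coactivator of B cells, each changed by -0.99 (adjusted p = 0.00431 for each). Of 13 MHC class II and antigen presentation genes, 8 were higher in asymptomatic spleen (against 6.92%) and 3 changed, all more negative (against 1.89%, and 2 without mouse 4), H2-Oa by -1.06 (adjusted p = 0.0045).

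Some B cell genes differed between the lymphoma organs. Cxcr5, the receptor for Cxcl13, was 1.11 ± 0.5 higher in spleen without mouse 4 (SD, n = 5, adjusted p = 0.0326) and 0.62 higher with it (adjusted p = 0.811). Its lymphoma levels lay below the asymptomatic ones in each organ, with medians of 7.0 in lymphoma spleen and 5.98 in lymphoma node, against 9.64 in asymptomatic spleen and 8.3 in asymptomatic node. Fcrla, an Fc receptor-like protein of B cells, was 0.84 higher without mouse 4 (adjusted p = 0.0351) and 0.51 with it (adjusted p = 0.755). Mouse 4 again had the spleen lower for 17 of the 19 mature B genes, while 43.3% of all genes were higher in its spleen.

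The 8 largest changes to a more negative difference were in Ceacam2, Cdh17, Trem1, Ccl3, Siglecg, Ccr1, Plac8 and Tlr6. Siglecg is an inhibitory receptor of B cells, Cdh17 a cadherin, Ccl3 a chemokine with Ccr1 as a receptor, and Trem1 and Tlr6 are receptors of myeloid cells. Cdh17 was lower in spleen in all 6 lymphoma mice, with a difference of -0.54, and higher in spleen in all 6 asymptomatic mice, with 1.52 (change -2.06, SE 0.23, adjusted p = 0.00279). Its level varied widely between lymphoma mice, between 6.18 and 11.35 in spleen and between 6.55 and 11.83 in node. Plac8 ran between 10.35 and 11.17 in lymphoma spleen and between 10.28 and 11.18 in node, against 9.95 to 10.85 in asymptomatic spleen and 8.39 to 10.11 in asymptomatic node, and changed by -1.54 (SE 0.28, adjusted p = 0.00789).

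**Figure D4:**
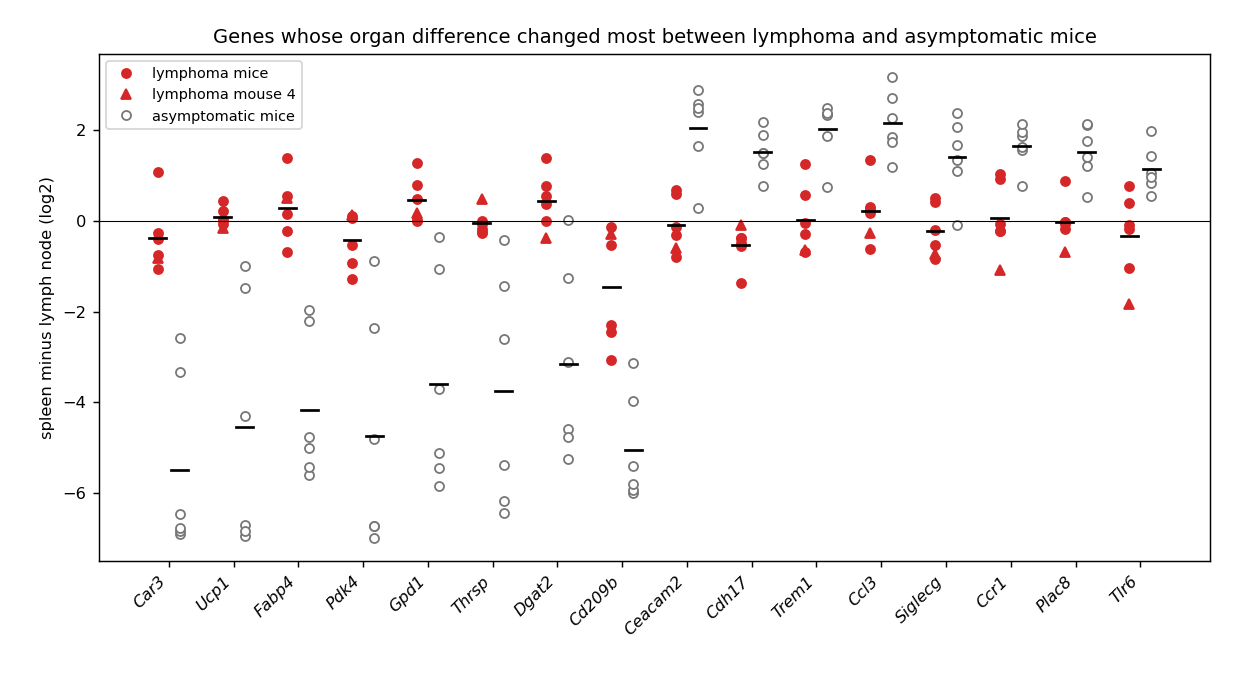
Spleen minus lymph node difference (log2, vertical axis) in each lymphoma mouse (filled, mouse 4 as triangle) and each asymptomatic mouse (open) for the 16 genes with the largest called changes between the states, with bars at the means. For the 8 genes at the left the asymptomatic means lie between -5.48 and -3.16, and the lymphoma means are nearer 0, while for the 8 at the right the asymptomatic means lie above 1.

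With lymphoma, 63.7% of the 1379 genes higher in asymptomatic spleen were higher (70.9% without mouse 4), and 66.1% of the 1701 lower genes were lower (65.0%). Of the 124 genes called without mouse 4, 45 were called in the same direction in asymptomatic mice (36.3% of the 124, against 15.4% of all genes called there in either direction, and 1.46% of the 3080, against 0.622% of all genes called with lymphoma without mouse 4), 70 were not called there, and 9 were called in the opposite direction. Requiring the same sign in all 6 lymphoma mice left 24 of the 1379 higher genes and 89 of the 1701 lower genes, where 1.23% and 2.54% of all genes had that sign in all 6. In the 5 mice other than mouse 4, 203 and 247 of them had the same sign, against 5.81% and 6.26% of all genes. The higher ones with the same sign in all 6 included Ms4a3 and Ctsg of early granulocytes, H1f2, a linker histone, and S1pr5, a sphingosine phosphate receptor of natural killer cells and patrolling monocytes. S1pr5 ran between 6.79 and 8.08 in lymphoma spleen and between 6.5 and 6.97 in node, with a difference of 0.75 (adjusted p = 0.589), which was 0.89 without mouse 4 (adjusted p = 0.047). The lower ones included Cxcl13, Serping1, Cd209b, Ccl8, the complement gene C4b, and Dpt and Htra1, which encode secreted matrix proteins. Of these 7, Cxcl13 alone had no called change in size, and the differences of the other 6 were called smaller with lymphoma than in asymptomatic mice. Without mouse 4, of those 6, Cd209b and Dpt passed (adjusted p = 0.0146 and 0.0346).

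The 9 genes with opposite calls were Clca3a1, Slc22a23, Daam1, Podxl, Nfia, Tgm2, Pdlim1, Fnip2 and Mtus1. All were higher in lymphoma spleen without mouse 4 and lower in asymptomatic spleen. They were 9 of the 110 genes called higher without mouse 4, near the 8.53% of all genes called lower in asymptomatic spleen. Podxl, a sialomucin of vessels, blood cell precursors and platelets, ran between 6.44 and 7.73 in lymphoma spleen and between 6.07 and 6.69 in lymphoma node. In asymptomatic mice it ran between 6.04 and 6.41 in spleen and between 6.79 and 8.03 in node, with no overlap. The difference was 0.97 ± 0.47 without mouse 4 (SD, n = 5, adjusted p = 0.0436), 0.77 with it (adjusted p = 0.589) and -1.31 in asymptomatic mice (adjusted p = 0.00155), and the change with all mice was 2.08 (SE 0.34, adjusted p = 0.00557). The change passed the test with all mice for each of the other 8, between 1.0 for Pdlim1 and 3.28 for Clca3a1.

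The 3 FVB/N mice gave the same question less precision, and limma called 0 of 19938 genes between their organs (0.0%), with 3167 at an unadjusted p under 0.05. The difference between lymphoma and FVB/N mice called 366 genes (1.84%), 175 more positive (0.878%) and 191 more negative (0.958%) with lymphoma. Leaving out FVB/N mouse 2 or 3 reduced this to 8 or 10 genes, and leaving out FVB/N mouse 1 raised it to 1682.

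Batch A held mice 1 to 3 of every state and batch B mice 4 to 6 of both Tg26 states. In the lymphoma mice of batch A alone, 71 genes were called between the organs, while batch B alone, which includes mouse 4, gave 0. The difference between the Tg26 states called 56 genes in batch A and 533 in batch B.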

How the data were processed

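Per the design text of the series, the authors normalized the arrays by fRMA, a frozen robust multiarray average, and the deposited log2 values were used as deposited for all 30 arrays. Array medians lay between 6.67 and 6.89. Of 35556 probe sets with values, 21789 carried 1 gene symbol in the platform annotation, 1621 carried several and 12146 had none listed. The probe set with the highest mean was kept per gene (19938 genes, 999 with more than 1). Organ differences were fitted in limma 3.58.1 (R 4.3.3) with mouse as a block, per state and, for differences between states, over all 30 arrays. Pairing follows the mouse number in the titles. Residuals of the 2 organs of a mouse correlated between 0.29 and 0.68 in lymphoma, between 0.14 and 0.5 in asymptomatic and between -0.01 and 0.05 in FVB/N mice. The own mouse gave the highest correlation for all 6 lymphoma mice, but another mouse did for asymptomatic mice 3, 4 and 6 and FVB/N mice 1 and 2. The scripts were tested on simulated data. The genes, 43 lists and tests were chosen with earlier results of these data known, and lists are described by counts and medians only. Named genes were the 12 largest calls per direction with the same sign in every mouse, the 8 largest changes per direction between states, and list members. With all 6 mice the first rule named none, so it was applied without mouse 4, after the values were seen, and genes with 1 sign in all 6 mice were added. Promoters come from RefSeq (GRCm38.p6). Few arrays per group limit the precision.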

Additional observations from a re-analysis of the deposited data

Results flagged for a closer look

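Of 81 sets of 6 lymphoma values tested with Dixon's criterion, 7 held a mouse far from the others. Chance flags about 1 in 20 such sets, but the 7 cannot be set against that rate, since the genes named next were chosen by their differences without mouse 4. Mouse 4 was that mouse for the organ differences of Car1 (-4.2), Ppbp (-2.52), Adgre4 (-1.03) and Aqp1 (-0.97), each positive in the other 5 mice. Mouse 2 was it for the medians of the complement and coagulation list (0.55) and the resident dendritic cell list (0.3). Mouse 3 was it for the list of genes that earlier results of these data gave as raised in lymphoma (-0.66).

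The organ difference itself differed between lymphoma and asymptomatic mice, by limma's interaction test over all 30 arrays, for the 16 genes with the largest changes. It was more positive with lymphoma for Car3 (5.11), Ucp1 (4.63), Fabp4 (4.44), Pdk4 (4.34), Gpd1 (4.05), Thrsp (3.69), Dgat2 (3.61) and Cd209b (3.58). It was more negative for Ceacam2 (-2.14), Cdh17 (-2.06), Trem1 (-2.0), Ccl3 (-1.95), Siglecg (-1.64), Ccr1 (-1.59), Plac8 (-1.54) and Tlr6 (-1.47). In the lymphoma mice, adipose and muscle genes had median organ differences between -0.19 and 0.07, and in the asymptomatic mice between -3.93 and -0.11. The part of node-adjacent tissue in these changes was not tested.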

How the results depend on the processing

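The count of genes called between lymphoma spleen and node was 0 under every alternative tried except leaving out mouse 4 (124), batch A alone (71) and surrogate variables without the replicate block (277), and leaving out single mice gave 0 to 124. Without the block, the paired lymphoma comparison also gave 0. Between asymptomatic organs, batch A alone gave 553 and batch B alone 1299, and leaving out single mice gave 1460 to 4402, with 1671, 1543, 1867 and 1460 without mice 2, 3, 4 and 5. FVB/N organs gave 276 calls without the block, 362 with a random replicate block, 1604 with the spread of all 30 arrays and 0 to 1168 without single mice (1168 without mouse 1). The change between lymphoma and asymptomatic mice gave 596 without the replicate block, 56 in batch A, 533 in batch B and 430 to 2475 without single mice. Leaving out asymptomatic mouse 2, 3, 4 or 5 gave 642, 430, 565 or 467, lymphoma mouse 2 or 3 gave 574 or 675, and asymptomatic mouse 1 gave 2475. Leaving out lymphoma mouse 4 together with asymptomatic mouse 6, chosen after seeing the data, gave 1218. Of the 16 genes with the largest changes, 11 kept the call without the block, 3 in batch A and 5 in batch B. The change against FVB/N mice gave 69 without the block, 692 with a random block, 138 in batch A and 8 to 1682 without single mice, with 170, 111, 108 and 183 without lymphoma mice 1, 2, 3 and 6. Batch A and batch B alone hold fewer mice. The cause of the other moves was not tested.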

Other observations

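Some genes differed far more between lymphoma mice than between the organs of 1 mouse. The median SD of the mouse means was 0.2, and the median organ spread within a mouse was 0.19. Of 220 genes with an SD between mice of at least 1, 18 had the organs of every mouse within 0.5 log2 units. Slc25a31, an adenine nucleotide carrier, read 9.18 in the spleen and 8.96 in the node of mouse 2, and between 4.11 and 4.55 in the other 10 lymphoma arrays. Alpl, the tissue alkaline phosphatase, read 7.43 in the spleen and 7.27 in the node of mouse 5, and between 10.46 and 11.87 in the others. Arhgap42 read 8.62 in both organs of mouse 1, and between 4.47 and 5.6 in the others. Trpc4, a cation channel, was highest in mouse 2, at 9.32 in spleen and 9.76 in node.

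Psmb5, a proteasome subunit, split by batch, at 11.62 to 12.36 in the 6 arrays of mice 1 to 3 and 9.3 to 9.89 in the 6 of mice 4 to 6. Eif2s3y, a Y-linked gene, read 8.82 in the spleen and 8.94 in the node of mouse 4. It was near 4 in both organs of mice 3 and 5 (4.06 and 3.86 in mouse 3, 3.59 and 3.85 in mouse 5). In all asymptomatic and FVB/N arrays it was at least 8.64, so only the lymphoma group held mice without this Y-linked signal. The part of sex in the differences between states was not tested. The genes of this section were picked after their values were seen.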
